A study of Mus musculus with 12 samples.

Results

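The strongest autosomal sites of meiotic recombination initiation in wild type mouse testis were taken from a list of DMC1 single-stranded DNA sequencing (SSDS) hotspots. Strong hotspots were the intervals of the wild type list on chromosomes 1 to 19 with a strength of 800 or more background-subtracted reads, 943 of 12663 autosomal hotspots (7.45%) and of 13480 hotspots in the whole list. They were chosen by their strength in the wild type list, so their wild type strength is a description. Their strength, rank and width in the Ankrd31 knockout list, and their place among genes, were not used in the choice.

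Programmed double-strand breaks start meiotic recombination. The recombinase DMC1 coats the resected single strands beside each break, and SSDS isolates and sequences this DNA. In mice PRDM9, a histone methyltransferase with a zinc finger domain, places most autosomal breaks at hotspots away from promoters, and ANKRD31 is a partner of the machinery that makes the breaks. The DMC1 signal of a hotspot reflects both how often it is broken and how long DMC1 stays on the DNA, so strength is not a break frequency.

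The series holds 12 samples. The analysis used the DMC1 data of adult male whole testis, with 2 samples of the Ankrd31 tm1Atot knockout and 2 of wild type strain C57BL/6JCrl. The labels name the knockout by its allele alone, and the sources used here give neither its strain background nor the change it carries. The H3K4me3 and input samples, from both genotypes at 13 days after birth, were not analysed here. Whole testis was used, so fewer cells with DMC1 on their DNA and less DMC1-bound DNA per cell cannot be told apart. The cell make-up of the testes is not measured by this assay.

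The knockout list held 4203380 reads in 22034 hotspots and the wild type list 4376692 reads in 13480 hotspots. Each genotype has 1 list, so the spread between mice is unknown and no p-value is given between genotypes. Intervals in parentheses are exact 95% binomial intervals over hotspots, or order-statistic intervals for medians, and cover counting error only. Neighbouring hotspots share their chromosome region and all share the same libraries, so hotspots are not replicates.

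Strong hotspots seldom held a promoter. Promoters were RefSeq windows on GRCm38.p6 of 300 bases, from 250 before to 50 after a transcription start, on the 18 autosomes that the promoter table covers. A whole window lay inside 9 of 895 strong hotspots (1.01%, 0.461 to 1.90), against 156 of 11309 other wild type autosomal hotspots (1.38%, 1.17 to 1.61). By contrast, 4304 of 9269 autosomal hotspots of the knockout list without a wild type partner held one (46.4%, 45.4 to 47.5). The 10 windows in strong hotspots carried a median of 4.5 CG dinucleotides, and 1 of them (10%) had 10 or more. Among the windows in knockout-only hotspots the median was 25 and 93.3% had 10 or more, against a median of 7 and 44.0% over all 31396 windows. At least 1 CG was present in 94.8% of all windows.

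A few windows show start sites near the centre and at the edge of strong hotspots, and for contrast the window in the strongest promoter-holding knockout-only autosomal hotspot. They are RefSeq sequences of GRCm38.p6, 5′ to 3′ on the strand of the gene. Capitals mark CG, a motif that reads the same on both strands. Nt5c3, which encodes a pyrimidine nucleotidase, has its window at chr6:56901837-56902136 on the minus strand. The windows of 5730405A17Rik (chr8:61428079-61428378, minus), Sned1 (chr1:93235647-93235946, plus), which encodes an extracellular matrix protein, and Gm31125 (chr4:106840112-106840411, minus) follow.
Nt5c3: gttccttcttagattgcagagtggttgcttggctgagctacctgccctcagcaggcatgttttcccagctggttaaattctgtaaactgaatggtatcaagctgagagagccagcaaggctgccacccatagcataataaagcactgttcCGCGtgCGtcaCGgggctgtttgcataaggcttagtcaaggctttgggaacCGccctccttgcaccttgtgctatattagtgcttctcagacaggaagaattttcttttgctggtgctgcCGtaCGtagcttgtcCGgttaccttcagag
5730405A17Rik: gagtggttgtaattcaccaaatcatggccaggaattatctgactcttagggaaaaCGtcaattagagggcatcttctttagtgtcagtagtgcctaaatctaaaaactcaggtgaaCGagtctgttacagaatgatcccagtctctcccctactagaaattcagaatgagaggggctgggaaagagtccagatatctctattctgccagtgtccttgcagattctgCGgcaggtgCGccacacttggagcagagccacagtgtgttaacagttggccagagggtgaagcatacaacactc
Sned1: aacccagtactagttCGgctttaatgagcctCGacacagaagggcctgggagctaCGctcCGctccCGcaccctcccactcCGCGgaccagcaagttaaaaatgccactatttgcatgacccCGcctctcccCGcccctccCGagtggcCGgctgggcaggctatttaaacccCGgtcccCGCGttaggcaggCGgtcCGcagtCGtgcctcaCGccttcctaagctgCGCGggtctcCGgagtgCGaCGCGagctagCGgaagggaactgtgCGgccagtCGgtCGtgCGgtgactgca
Gm31125: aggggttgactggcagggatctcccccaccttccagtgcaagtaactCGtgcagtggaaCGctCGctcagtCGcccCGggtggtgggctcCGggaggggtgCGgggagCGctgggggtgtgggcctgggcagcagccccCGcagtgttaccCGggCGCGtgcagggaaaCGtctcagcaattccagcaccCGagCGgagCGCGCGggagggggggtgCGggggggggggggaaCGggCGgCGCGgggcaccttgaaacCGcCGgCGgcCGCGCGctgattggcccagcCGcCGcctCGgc

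The Nt5c3 window held 8 CG and its start site lay 132 bp from the centre of a hotspot with a strength of 303 in the knockout and 1166 in the wild type. The 5730405A17Rik window held 4 CG and its start site lay 200 bp from the centre of a hotspot with 503 in the knockout and 921 in the wild type. The Sned1 window, with 29 CG the richest in a strong hotspot, had its start site 1021 bp from the centre of a hotspot with 332 in the knockout and 884 in the wild type. The Gm31125 window held 32 CG, and its knockout-only hotspot had a strength of 802. No genome sequence was used here, so the bases of the other strong hotspots and their PRDM9 motifs are not shown.

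The strong hotspots held 33.3% of the summed autosomal strength of the wild type list (1199757 of 3604450) on 2050.5 kb, 9.12% of the 22474.4 kb that autosomal hotspots covered. Their strength had a median of 1098 (quartiles 921 and 1440, highest 4557) and a mean of 1272.3, and 590 reached 1000, 83 reached 2000 and 14 reached 3000. Their ranks ran from 16 to 1155 in the wild type list, in which the X chromosome holds the ranks above. The knockout hotspots overlapping the strong hotspots summed to 555607, 16.8% of the autosomal strength of 3310137 in the knockout list, with a mean of 589.2. These knockout intervals were mostly narrower, and wild type strength chose the set, so nothing is read from the lower share. The threshold fell in a continuous range. Just inside it lay hotspots inside Mfsd14b (801), between Boc and Nepro (800) and between Ints3 and Npr1 (800). Just outside lay hotspots inside Ap1b1 and inside Myo10, each with 799.

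The strongest autosomal hotspot of the wild type stood apart from the next ones in the knockout. It lay on chromosome 9 from 35304580 to 35306436, outside protein-coding genes and inside the lncRNA gene Gm33838, 29.6 kb from Rpusd4. Its strength was 3961 in the knockout (exact Poisson bounds 3838.5 to 4086.4), where it ranked 2, and 4557 in the wild type. It was the only 1 of the 20 strongest whose strength, set against the median of each list, was not lower in the knockout. It had 20 protein-coding genes within 500 kb and was also the narrowest of them, at 1856 bp in the wild type.

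The next 3 lay inside genes and had between 1266 and 1907 in the knockout against 3885 to 4072 in the wild type. The hotspot in Erbb4, a receptor tyrosine kinase gene, had 1266 in the knockout and 4072 in the wild type. That in Ankfn1 had 1268 and that in Hdac9, a histone deacetylase gene, 1907 in the knockout, against 3977 and 3885 in the wild type. Hotspots in 3 further genes stood much lower in the knockout. The hotspot in Atad2b had 510 in the knockout and 3738 in the wild type. The hotspot in Dennd1a, which encodes an exchange factor of Rab proteins, had 515 and 3127, and that in the kinase gene Braf 478 and 3106. The hotspot in Clk1, which encodes a kinase of splicing factors, was the lowest of the 20 in the knockout, with 313 there and 2828 in the wild type.

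The rest of the 20 had between 915 and 2016 in the knockout. The hotspot in the adhesion gene Cadm2 had 2016 in the knockout and 3024 in the wild type, and that in Nrg1, which encodes a ligand of ERBB receptors, 1515 and 2993. The hotspot in Gabrb1, a GABA receptor subunit gene, had 1155 in the knockout and 3599 in the wild type. The gap between Cps1 and Erbb4 held a hotspot with 1513 in the knockout and 3157 in the wild type, and the gap between 4930519L02Rik and Lmo4 held one with 1763 and 2719. A hotspot between Mfsd14a and Slc35a3 tied with it for the last place and is not counted among the 20, with 817 in the knockout and 2719 in the wild type. The gap between Tmpo and Nedd1, which encodes a centrosomal protein, held one with 1597 and 3310. The other 6 lay in gaps between Cmpk2 and Sox11, Akr1d1 and Trim24, Lrrc4c and Iftap, Adamts5 and N6amt1, Nrsn1 and Hdgfl1, and Slc7a14 and Kcnmb2. They had 915 to 1287 in the knockout and 2732 to 3492 in the wild type.

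Every autosome carried strong hotspots, from 24 on chromosome 19 to 78 on chromosome 1. Their share of the hotspots of a chromosome was highest on chromosome 18 (10.5%), chromosome 3 (9.73%), chromosome 5 (9.29%) and chromosome 16 (9.09%). It was lowest on chromosome 10 (5.43%), chromosome 15 (5.47%) and chromosome 11 (5.88%). Per 10 Mb between the first and last wild type hotspot, chromosome 18 had 5.60 and chromosome 16 had 5.11, against 2.75 on chromosome 7 and 3.33 on chromosome 9. They held between 26.4% (chromosome 15) and 39.8% (chromosome 3) of the strength of a chromosome in the wild type. On chromosomes whose strongest hotspot was not among the 20, it lay inside Strn (749 in the knockout and 2648 in the wild type), AW554918 (703 and 2645), Slc44a1 (647 and 2562) and Hnrnpul2 (376 and 1472). On chromosomes 15, 14 and 7 it lay in gaps between Cdh6 and Cdh9 (1472 in the knockout and 2628 in the wild type), Klhl1 and Dach1 (1584 and 2398), and Pcf11 and Rab30 (812 and 2488).

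**Figure D1:**
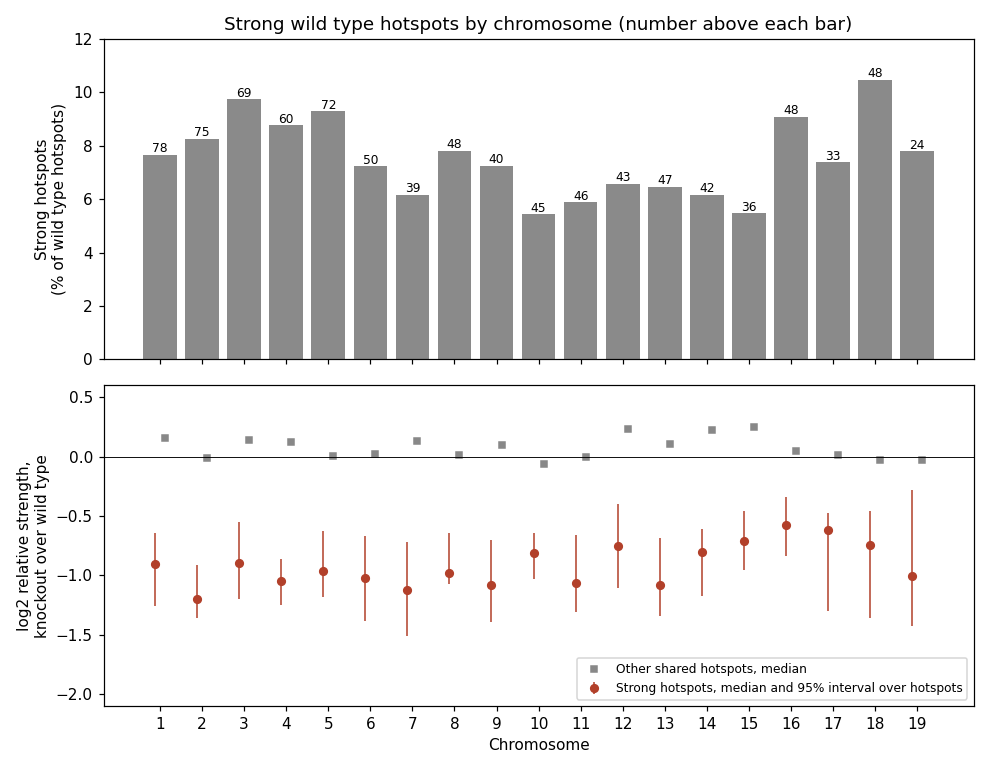
Top, strong hotspots as a percent of the wild type hotspots of each autosome, with their number above the bar. Bottom, median log2 relative strength of knockout over wild type for strong hotspots (points, with order-statistic 95% intervals over hotspots) and for the other shared hotspots (squares). The strong hotspots lie between -1.20 on chromosome 2 and -0.58 on chromosome 16. Wild type strength, the denominator of the ratio, chose the strong hotspots, so nothing is read from their place below the squares.

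Along the chromosomes, strong hotspots lay somewhat nearer the centromere than the others. With the stretch from the first to the last wild type hotspot cut in 3 equal parts, 374 (39.7%, 36.5 to 42.9) lay in the centromere-proximal part and 260 (27.6%, 24.7 to 30.5) in the distal part. Other wild type autosomal hotspots had 33.8% (33.0 to 34.7) and 35.1% (34.2 to 35.9) there.

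Most strong hotspots lay far apart. The median distance between neighbouring strong hotspots was 1611.9 kb (quartiles 594.8 and 3502.2 kb), and 53 of 924 neighbour distances (5.74%) were under 100 kb. In 89 neighbour pairs no other wild type hotspot lay between. The closest pair lay 16.4 kb apart on chromosome 9, inside Arih1, a ubiquitin ligase gene, and in the gap beside it, with 205 and 327 in the knockout against 1724 and 850 in the wild type. Next came pairs inside Col14a1 (17.1 kb apart) and Herc2 (17.3 kb), in the adjacent genes Clk1 and Ppil3 (18.1 kb) and inside Gabrb1 (18.96 kb). The longest gaps were 20.1 Mb on chromosome 6, from Grm7 on, and 15.8 Mb on chromosome 7, up to Herc2. The gap on chromosome 6 held 78 weaker wild type hotspots and that on chromosome 7 held 55. The median distance to the nearest wild type hotspot of any strength was 65.3 kb for strong hotspots and 62.5 kb for the others.

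A majority of strong hotspots lay inside protein-coding genes, 538 of 943 (57.1%, 53.8 to 60.2), compared with 5928 of 11720 others (50.6%, 49.7 to 51.5). A further 52 lay in lncRNA genes outside protein-coding ones, and 340 (36.1%, 33.0 to 39.2) outside all annotated genes, compared with 41.2% (40.3 to 42.0) of the others. Near a gene end, at most 1 kb away, lay 21 (2.23%, 1.38 to 3.38), compared with 2.65% (2.37 to 2.96) of the others. Of the 405 outside protein-coding genes, 198 were over 100 kb from the nearest one. In the 411 strong hotspots inside a single gene of known strand, 126, 141 and 144 lay in the first, middle and last of 3 equal parts of the gene, counted from its start.

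The 538 hotspots lay in 512 genes. Of these, 26 genes held 2 strong hotspots, and Celf2, Hdac9, Herc2 and Nrg1 held 3. Long genes held a strong hotspot more often than short ones, 113 of 533 autosomal protein-coding genes over 300 kb (21.2%) and 142 of 15940 under 50 kb (0.891%). The median lengths of these classes were 450.8 and 11.3 kb, and shares per kb were not compared. The genes around the other wild type hotspots were no shorter, with a median length of 116.1 kb for strong hotspots and 132.7 kb for the others. The 3 hotspots of Celf2, which encodes an RNA-binding splicing regulator, had 226, 210 and 165 in the knockout, against 1203, 1037 and 876 in the wild type. The 3 in Herc2, a ubiquitin ligase gene, had 230, 310 and 426 in the knockout and 1524, 1431 and 1339 in the wild type. Those in Hdac9 had 1907, 702 and 692 in the knockout and 3885, 1753 and 905 in the wild type. Those in Nrg1 had 1515, 587 and 586 in the knockout and 2993, 1454 and 982 in the wild type. In Celf2 and Herc2 all 3 were over 2-fold lower in relative strength, and in Nrg1 and Hdac9 1 each was, by a small margin.

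Families of neuronal genes, which are longer than the average gene, were counted, with no test of a difference. Of 72 axon guidance genes, 8 (11.1%, 4.92 to 20.7) held one: Dcc, Epha6, Ntn4, Robo1, Robo2, Sema3a, Sema5a and Unc5c. Of 130 genes of cadherins and neuronal adhesion, 8 (6.15%, 2.69 to 11.8) did, and of 156 genes of voltage-gated channels and glutamate receptors, 9 (5.77%, 2.67 to 10.7). Over all autosomal protein-coding genes the count was 512 of 20665 (2.48%, 2.27 to 2.70). A wild type hotspot of any strength lay in 43.1%, 38.5% and 41.0% of the genes of these families and in 19.6% of all genes. The median gene length was 49.8, 135 and 60.0 kb in these families and 17.5 kb over all genes. None of 1452 olfactory and vomeronasal receptor genes (up to 0.254%) and none of 42 meiotic recombination and synapsis genes (up to 8.41%) held one. The median knockout strength was 745 at 9 adhesion gene hotspots, 611 at 9 axon guidance hotspots and 596 at 11 channel and receptor hotspots, with 1017, 1010 and 1073 in the wild type. The genes that held them were long (medians of 1392, 724.1 and 460.4 kb), and the knockout median was 589 over all 134 strong hotspots in genes over 300 kb. The hotspot in Pcdh15, a protocadherin of hair cells, had 1304 in the knockout and 1108 in the wild type, and that in the synaptic adhesion gene Nrxn3 1196 and 1015. In Cntnap2 of the same family the strength was 178 in the knockout and 804 in the wild type.

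All 943 strong hotspots overlapped a knockout hotspot by at least 1 bp (100%, 99.6 to 100), compared with 9817 of 11720 others (83.8%, 83.1 to 84.4) and 85% of all wild type autosomal hotspots. The centres lay a median of 40 bp apart, within 100 bp in 808 (85.7%), and at most 679 bp. The offset was 51 bp for the other shared hotspots. No strong hotspot was therefore missing from the knockout list. The other wild type hotspots were weaker, with a median strength of 135. With a threshold of 600, 99.8% of 1607 hotspots had a knockout partner, so having one was not particular to the strong set.

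Their order of strength was only partly kept, with a Spearman correlation of 0.35 between wild type and knockout strength. Choice by wild type strength restricts the range behind this correlation. The median rank in the whole knockout list was 1236 of 22034 (quartiles 569.5 and 2654.5), the best rank 2 and the lowest 17978. The median was 859 among knockout autosomal hotspots, and 639 in the whole wild type list. In the weaker part of the knockout list, below rank 11017, lay 6 strong hotspots (0.636%). The knockout strength had a median of 533 (quartiles 346 and 748.5, range 57 to 3961), compared with 137 for the other shared hotspots. Of the 943, 202 reached 800 in the knockout too (21.4%, 18.8 to 24.2), compared with 2.05% of all wild type autosomal hotspots. In the knockout list 261 autosomal hotspots reached 800, and 202 of them (77.4%) were these. Among the 943 strongest autosomal hotspots of the knockout list stood 500 of the strong hotspots (53.0%, 49.8 to 56.2), against 7.25% of all wild type autosomal hotspots.

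**Figure D2:**
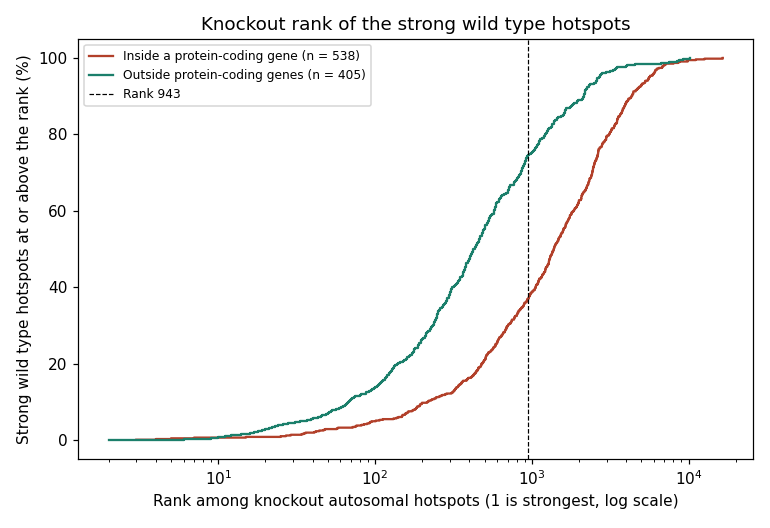
Cumulative percent of the strong wild type hotspots (vertical axis) at or above each rank among knockout autosomal hotspots (horizontal log axis, 1 is the strongest), split by place. At rank 943 (dashed), 37.0% of those inside protein-coding genes and 74.3% of those outside had been reached.

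Relative strength is the strength divided by the median of the autosomal shared hotspots of its list (151 in the knockout, 182 in the wild type), and the log2 ratio is knockout over wild type. The median log2 ratio of the strong hotspots was -0.92 (interval -1.0 to -0.83, SD over hotspots 0.75), against 0.08 for the other 9817 shared autosomal hotspots. It was -0.01 for all 10760 shared autosomal hotspots. The medians of these same hotspots set the scale, so nothing is read from this value. A strong hotspot had a lower relative strength in the knockout in 854 of 943 cases, and a lower strength as deposited in 914. Over 2-fold lower were 441 (46.8%, 43.5 to 50.01), against 15.9% of all shared autosomal hotspots, and 91 were over 4-fold lower. Over 2-fold higher was 1, against 12.4%. On values as deposited 553 (58.6%) were over 2-fold lower, against 22.6%. Since the wild type strength in this ratio chose the hotspots, nothing is read from these counts.

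The opposite choice, by knockout strength, is described beside it. Of the 943 strongest autosomal hotspots of the knockout list, 918 (97.3%, 96.1 to 98.3) had a wild type partner. Their median log2 ratio was -0.01 (-0.08 to 0.05), with 89 (9.69%) over 2-fold higher and 85 (9.26%) over 2-fold lower in the knockout. Knockout strength, the numerator of this ratio, chose these hotspots, so nothing is read from these values either. The 943 strongest knockout hotspots held 21.3% of the autosomal strength of the knockout list, against 33.3% for the strong hotspots in the wild type list. The lists had 20448 and 12663 autosomal hotspots, so the 2 shares come from unlike fractions of their lists. The weakest of these knockout hotspots had a strength of 513.

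**Figure D3:**
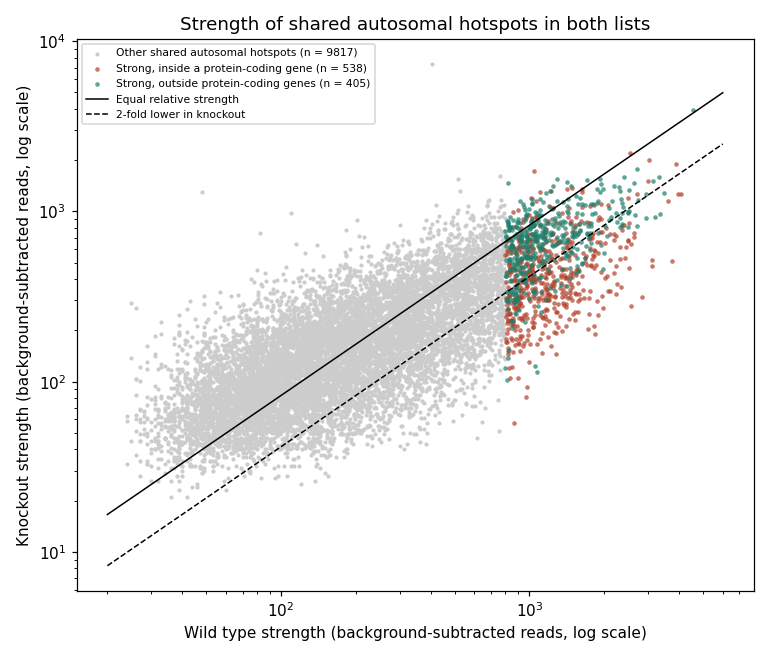
Knockout strength (vertical) against wild type strength (horizontal), both in background-subtracted reads on log axes, for the 10760 shared autosomal hotspots. Strong hotspots are coloured by place, the solid line marks equal relative strength and the dashed line 2-fold lower in the knockout. Of the strong hotspots inside protein-coding genes 62.8% lie below the dashed line, and of those outside 25.4%.

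The strength that a strong hotspot kept in the knockout differed by its place among genes, and so did that of the other shared hotspots. Inside protein-coding genes the median knockout strength was 426 (quartiles 300 and 619), and outside it was 698 (502 and 862). The wild type medians were 1119.5 inside and 1077 outside. Choice by wild type strength restricts the wild type median of any group of strong hotspots, so nothing is read from their likeness. The median log2 ratio was -1.26 (-1.34 to -1.17) inside and -0.57 (-0.63 to -0.49) outside. Over 2-fold lower were 338 of 538 (62.8%) inside and 103 of 405 (25.4%) outside. For the other shared hotspots the median log2 ratio was -0.19 inside and 0.28 outside, and 20.6% and 5.81% were over 2-fold lower. Among the strongest 943 of the knockout stood 199 (37.0%) and 301 (74.3%). The knockout median was lower inside than outside on all 19 autosomes. Medians by part of the gene ranged only from 361.5 to 423 in the knockout. By gene length, the knockout median was 348 at the 137 hotspots in genes under 50 kb and 589 at the 134 in genes over 300 kb, with 1120 and 1070 in the wild type. The other shared hotspots had median log2 ratios of -0.39 and 0.12 in these genes.

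Strong hotspots with more protein-coding genes around them had a lower strength in the knockout. With 0 to 3 genes the median knockout strength was 731 (quartiles 531 and 925, 285 hotspots), with 4 to 6 genes 557, with 7 to 11 genes 470.5, and with 12 or more 358 (264.5 and 524.2, 230 hotspots). The wild type medians of these bins were 1079, 1090.5, 1070.5 and 1112. Choice by wild type strength restricts these medians and the range of wild type strength. Nothing is therefore read from their small differences, nor from the wild type correlation given below. Over 2-fold lower were 21.1%, 41.2%, 55.1% and 74.8% of the strong hotspots. For the other shared hotspots the median log2 ratio was 0.37, 0.08, -0.05 and -0.23 in the same bins. Of these others 5.11%, 11.8%, 15.3% and 20.9% were over 2-fold lower, so their share rose with gene number too. Across strong hotspots, Spearman correlation with gene number was -0.45 for knockout strength and -0.02 for wild type strength (n = 943, all from the same libraries, near hotspots sharing genes). Its sign for the log2 ratio was negative on all 19 autosomes. These bins were chosen after the values were seen, and base composition was not compared.

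Inside and outside genes, the relation to gene number held separately. Among hotspots outside genes the knockout median was 757 with 0 to 3 genes and 576 with 12 or more, and inside genes 631.5 and 346. Knockout-only hotspots also became more frequent with gene number. Their median number within 500 kb of a strong hotspot was 2 in the least gene-rich bin and 7 in the most. Strong hotspots with 0 or 1 knockout-only hotspots within 500 kb had a median knockout strength of 708, and those with 9 or more had 384.5, with 1102 and 1164.5 in the wild type. The part of gene number and of knockout-only hotspots in the result was not tested. A knockout-only hotspot lay within 10 kb of 56 strong hotspots (5.94%), compared with 5.63% of the others.

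**Figure D4:**
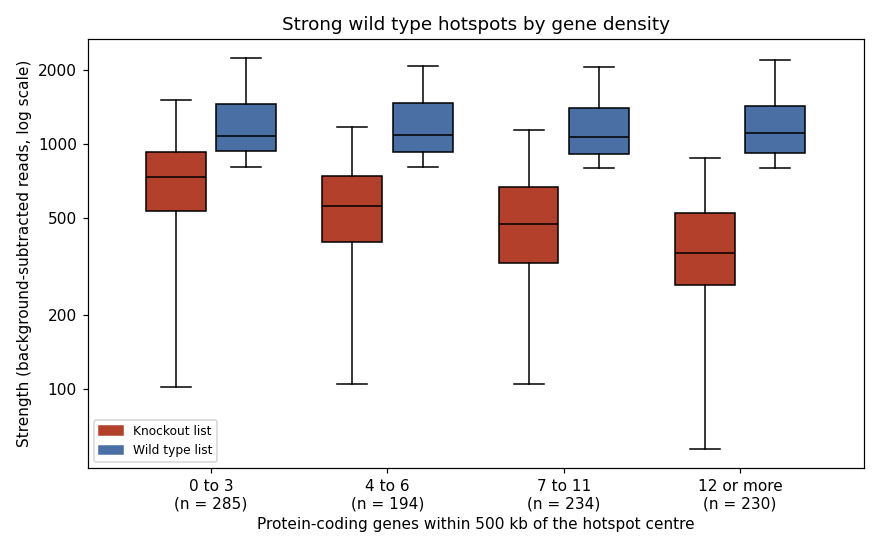
Strength in background-subtracted reads (vertical, log scale) of the strong hotspots in the knockout list (left box of each pair) and the wild type list (right box), by number of protein-coding genes within 500 kb. Boxes show median and quartiles, whiskers reach the furthest value within 1.5 box lengths, and values beyond are not drawn. The knockout median is 731 in the least gene-rich bin and 358 in the most gene-rich. The wild type medians lie between 1070.5 and 1112, and the choice by wild type strength restricts them.

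The log2 ratios of neighbouring strong hotspots were moderately correlated over short distances. The Pearson correlation between neighbours was 0.42 for 87 pairs under 200 kb apart and 0.22 for 261 pairs from 200 kb to 1 Mb. It was 0.20 for 300 pairs from 1 to 3 Mb and 0.08 for 276 pairs further apart. Spearman values in the same order were 0.43, 0.16, 0.18 and 0.08. The ratio of a strong hotspot was also related to the median ratio of the other shared hotspots within 1 Mb (Pearson 0.36, n = 938). Near hotspots share genes within 500 kb and all share the same libraries, so these are descriptions.

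The 5 lowest ratios lay in places with more genes than the 5 highest. The hotspot in Ufsp2, which encodes a protease of the UFM1 system, had 57 in the knockout (bounds 41.9 to 75.1) and 864 in the wild type. The hotspot in Acsl1, an acyl-CoA synthetase gene, had 81 and 969, that in Tnrc6c, of microRNA silencing, 93 and 979, and that in Hcfc2 191 and 1831. The fifth lay between Zfp950 and Gm7102 on chromosome 19, with 114 and 1077. All 5 had 9 to 15 protein-coding genes within 500 kb. The highest ratio was between Arhgap15 and Gtdc1 on chromosome 2, with 1466 in the knockout (1390.8 to 1544.2) and 822 in the wild type, 2.15-fold higher in relative strength. Next came hotspots in the phosphatase gene Dusp26 (1719 and 1048), between St8sia6 and Hacd1 (1146 and 920), between Spata19 and Opcml (1551 and 1291) and in Nrxn3 (1196 and 1015). These 5 had 2 to 8 genes within 500 kb.

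Strong hotspots were wide, and narrower in the knockout. Their width in the wild type was 2174.4 ± 310.8 bp (SD over hotspots, n = 943), compared with 1742.7 ± 279.4 bp for the others. The knockout interval was narrower in 927 of 943 (98.3%), with a median width of 1702 bp in the knockout against 2136 bp in the wild type, and a median difference of -416 bp. For the other shared hotspots the median difference was -176 bp and 80.8% were narrower. Width follows strength within the wild type (Spearman 0.45 over strong hotspots). At a strength of 400 to 800 the 437 knockout partners had a median width of 1702 bp and the 1748 wild type autosomal hotspots one of 1940 bp, so hotspots of like strength also differed in width between the lists. The calling settings of the lists were not compared.

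Width and background set a few strong hotspots apart. The widest lay on chromosome 11 from 3099705 to 3104505 (4800 bp), 29.7 kb from Sfi1. Its strength was 691 in the knockout and 1142 in the wild type, and background made up 52.6% and 32.8% of its reads, against medians of 3.23% and 2.78%. The next widest lay in the channel gene Pkd2l1 (4386 bp), with 210 in the knockout and 1307 in the wild type. The narrowest lay in Rsbn1l (1452 bp), with 319 and 906, and in Gm38469 (1574 bp), with 151 and 819.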

How the data were processed

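The analysis used 1 deposited hotspot list per genotype. Per the submitters' processing notes, CASAVA, Bowtie2, BWA and MACS2 and the build mm10 were used, without versions or roles. The sources used here do not give whether the 2 samples were pooled or scaled for depth. The deposited reads are whole counts per hotspot, per the file headers. The deposited background and strength are signal values: the strength equalled reads minus background in 100% of hotspots of both lists. The authors also deposited the strength as a percent of the list's sum, and the rank. Depth of single libraries was not used here.

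Hotspots overlapping by at least 1 bp were paired, and all 11487 pairs were 1 to 1. Genes were 20665 autosomal protein-coding entries of the RefSeq table of GRCm38.p6, which shares its chromosome coordinates with mm10. A hotspot was placed by its centre. Whether starts count from 0 or 1 is not stated, and coordinates are given as listed. The promoter table covered 18 autosomes and not chromosome 18.

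The hotspots and lists were chosen with earlier results of these data known. Named were the 20 strongest, those without a knockout partner, the 5 lowest and 5 highest ratios, 3 on each side of the threshold (1 outside it is not reported here), the strongest of each autosome, genes with 3 or more, the 5 closest pairs, and the 2 widest and 2 narrowest. Other genes were named after their values were seen. A change of over 2-fold was counted. Alternatives changed the threshold, overlap, scaling and gene windows. Scripts used Python 3.11.15, pandas 2.3.3 and SciPy 1.17.1 and were checked on simulated data.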

Additional observations from a re-analysis of the deposited data

How the results depend on the processing

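No result reversed under the alternatives run, but most were shares, widths or distances, which have no sign to reverse. Of 58 values, 31 were counted as unmoved and 27 as moved. The ratios of knockout medians by gene number and by place carry no interval, so no spread was set against their moves. With a threshold of 600 the strong hotspots held 46.0% of autosomal strength, 41.7% were over 2-fold lower (median log2 -0.80), 58.4% stood among as many strongest of the knockout, spacing was 922.9 kb, width 2070 bp and the width difference -379 bp. With 1000 these were 24.5%, 50.5% (-1.01), 49.0%, 2724.2 kb, 2197 bp and -455 bp. A count of 800 reads gave 34.9% of strength, and an overlap of at least 50% of both intervals left partners for 99.6%. Over 2-fold lower were 58.6% (-1.18) on deposited strength, 54.8% (-1.10) on shares of the whole list and 52.4% (-1.06) on autosomal shares. With all annotated genes, 63.9% lay inside and 5.20% at ends. End windows of 500 bp and 2 kb gave 0.954% and 4.45%. Outside genes, the knockout median of the most over the least gene-rich bin was 0.761, compared with 0.490 overall. The knockout median inside over outside genes was 0.610 for all strong hotspots. With 0 to 3 protein-coding genes within 500 kb it was nearer to equal, at 0.834, and with 12 or more it was 0.601. The alternatives for gene number and for inside against outside genes were chosen after seeing the data. The cause was not tested. No paired analysis was possible because each genotype has 1 list. Leaving out a replicate was not possible for the same reason, and differences between mice are unknown.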

Other observations

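The pair of strong hotspots with the lowest ratios, in Ufsp2 and Acsl1, lay in the same stretch of chromosome 8, which was looked at after their values were seen. From 45 to 48 Mb the wild type list had 21 hotspots, of which 11 had a knockout partner, compared with 85% of all wild type autosomal hotspots. The knockout list had 0 there without a wild type partner. Of the 11 shared hotspots 10 were lower in relative strength in the knockout and 7 over 2-fold lower, compared with 15.9% of all shared autosomal hotspots. The median log2 ratio of the 11 was -2.79, compared with -0.01 for all shared autosomal hotspots. The 2 hotspots in Sorbs2, which encodes a cytoskeletal adaptor, had strengths of 78 and 123 in the knockout, against 745 and 287 in the wild type. Of the 2 in Snx25, a sorting nexin gene, 1 had 76 in the knockout and 633 in the wild type, and the other had 180 in the wild type and no knockout partner. The single shared hotspot that was higher was 1 of 3 in Enpp6, which encodes a choline phosphodiesterase, and the other 2 had no knockout partner. Its strength was 7346 in the knockout (exact Poisson bounds 7177.7 to 7517.3), the highest of the knockout list, and 405 in the wild type, 21.9-fold higher in relative strength. Without it, the shared hotspots of the stretch summed to 839 in the knockout and 5327 in the wild type.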
